A study of Homo sapiens with 2 samples.

Results

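The set described here holds the long intergenic noncoding RNAs whose symbol is LINC followed only by digits and whose read counts sum to at least 100 over both libraries of the study. Of 1567 such rows among 27685 genes, 167 met this rule, and LINC00472 was one of them. The members were chosen by their summed count in the same 2 libraries, so their levels and ratios are given as a description. RNA came from NCI-H838, an established human lung adenocarcinoma line, 48 hours after Lipofectamine 2000 transfection. One culture received pCDH-LINC00472, a plasmid with the full-length RNA, and the control culture received the empty pCDH vector. Both cultures therefore carried a plasmid and the transfection reagent, and the share of cells that took up plasmid is not given in the sources used here. Each group held 1 library, so differences could not be set against a spread between replicates. No p-values appear, and intervals reflect the error of counting alone.

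Gene counts came to 21093055 in the culture given LINC00472 and to 54823706 in the control. In this design fewer cells that express an RNA and less RNA per cell cannot be told apart. Among epithelial markers, the keratins KRT8 (26.5 against 94.2 FPKM, fragments scaled to transcript length and depth) and KRT18 (23.9 against 156.7) were detected in the LINC00472 and control libraries, at lower levels in the former. KRT7 was lower too (481 against 3591 counts, log2 -1.81 after scaling to depth), and KRT19 had 0 against 44 counts. EPCAM was near equality (1.18 against 1.19 FPKM) and CDH1 was somewhat higher in the LINC00472 library (239 against 368 counts, log2 0.47 after scaling). Their part in the results below was not tested. Of the lung adenocarcinoma markers, the transcription factor NKX2-1 and the surfactant genes SFTPB and SFTPA1 had 0 counts in both, and SFTPC had 0 against 7. The aspartic protease NAPSA had 88 against 66 counts (log2 1.495 after scaling). Several markers of other cell types had counts in the control and few or none in the shallower LINC00472 library, while others had counts in both. Of the squamous markers, KRT5 had 0 against 395 counts (log2 -9.18 after scaling), DSG3 0 against 67 (-6.64), SOX2 0 against 6 (-3.30) and TP63 3 against 53 (-2.93). Ratios with 0 counts rest on a small added count. Of the neuroendocrine markers, CHGA had 0 against 177 counts (log2 -8.03), INSM1 0 against 12 (-4.22) and SYP 40 against 109 (-0.35). The leukocyte gene PTPRC had 0 against 32 counts (log2 -5.59), CD3E had 0 in both and CD68 had 432 against 1498 (log2 -0.70 after scaling). Of the fibroblast markers, COL1A1 had 237 against 458 counts (log2 0.14), PDGFRB 16 against 60 (-0.805) and DCN 0 against 28 (-5.40). Of the endothelial markers, VWF had 35 against 48 counts (log2 0.63), PECAM1 0 against 6 (-3.30) and CDH5 0 against 9 (-3.83). What these markers contribute to the members' ratios was not tested.

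LINC symbols are given to transcripts that lie between protein-coding genes and had no known product when they were named. Most are made by RNA polymerase II, capped, spliced and polyadenylated like messenger RNA, but they tend to be expressed at lower levels and are often held in the nucleus. Some act on a neighbouring gene or on chromatin, some bind proteins or microRNAs in the cytoplasm, and a few were later found to encode a small protein. LINC00472 has been studied as a growth-suppressing RNA in carcinomas, and its introns hold microRNAs of the miR-30 family.

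The promoters of 2 abundant members are shown because they frame the study's own RNA and the member with the highest mean FPKM. LINC00473 is a target of the factor CREB and its CRTC coactivators and is known as abundant in lung tumours that lack the kinase LKB1. Both sequences are from RefSeq (GRCh38.p14) and run from 250 bases before to 50 bases after the annotated start. That of LINC00472 lies at chr6:71420696-71420995 and that of LINC00473 at chr6:165987990-165988289, both on the minus strand. Capitals mark matches on either strand to the CCAAT box (CCAAT, or ATTGG), the GC box (GGGCGG, or CCGCCC) and the cyclic AMP response element (TGACGTC, or GACGTCA), and matches may overlap.
LINC00472 promoter: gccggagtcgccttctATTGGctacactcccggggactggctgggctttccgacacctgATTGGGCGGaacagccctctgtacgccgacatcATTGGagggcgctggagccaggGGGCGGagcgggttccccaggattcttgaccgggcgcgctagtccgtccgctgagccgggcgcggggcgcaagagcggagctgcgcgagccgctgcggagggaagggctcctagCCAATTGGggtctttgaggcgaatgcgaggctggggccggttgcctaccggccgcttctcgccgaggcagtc
LINC00473 promoter: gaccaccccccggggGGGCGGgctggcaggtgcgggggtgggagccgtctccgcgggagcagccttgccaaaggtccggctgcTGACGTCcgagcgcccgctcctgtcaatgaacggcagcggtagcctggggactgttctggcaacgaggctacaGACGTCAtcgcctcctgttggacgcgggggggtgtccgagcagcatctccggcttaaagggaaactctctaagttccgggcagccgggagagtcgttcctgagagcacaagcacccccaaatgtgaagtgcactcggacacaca
The LINC00472 window held 5 CCAAT and 2 GC box matches, of which 1 pair shares bases, and 2 of the CCAAT matches overlap on opposite strands. The LINC00473 window held 2 matches to the cyclic AMP response element and 1 GC box. These matches describe letters in the windows and show no binding.

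LINC00472 (NCBI gene ID 79940) had 5655 counts after LINC00472 transfection and 2563 after empty vector. In TMM-scaled CPM (counts scaled to library size) this was 243 against 51.7, and in deposited FPKM 25.3 against 4.74. The library labelled as overexpressing the RNA was therefore the higher one, by 4.69-fold (log2 2.23, 95% counting interval 2.16 to 2.30). The control held RNA assigned to this locus as well, and there it ranked among the 5 most counted members. Deposited FPKM per count differed by a log2 value of 0.00 between the libraries after centring on the median gene. It differed by at most 0.1 for 152 of 167 members. This value therefore cannot tell plasmid RNA from RNA of the locus. A further 17 members had a log2 ratio at least as high as that of LINC00472.

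The microRNA hairpins MIR30A and MIR30C2 lie in introns of LINC00472, at chr6:71403551-71403621 and chr6:71376960-71377031 on the minus strand (GRCh38.p14). Their mature 5p products are shown because they share a seed, bases 2 to 8, which is in capitals (RefSeq).
hsa-miR-30a-5p: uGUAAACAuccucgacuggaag
hsa-miR-30c-5p: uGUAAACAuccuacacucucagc
The MIR30C2 row had 18 counts in the LINC00472 library against 3 in the control, a log2 ratio of 3.41 with an interval of 1.90 to 6.08. The MIR30A row had 7 against 5 counts, and its interval of -0.30 to 3.57 included equality. Such rows count long-library reads over the hairpins, not mature microRNA.

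As a set, LINC-named RNAs were higher in the LINC00472 library. Of 167 members, 88 (52.7%) were at least 2-fold higher and 10 (5.99%) at least 2-fold lower, each with an interval that excluded equality, and 69 were neither. Over all 13482 genes with the same summed count, 14.5% were higher and 24.7% lower by that rule (39.2% either way). The median log2 ratio was 1.08 for members (quartiles 0.23 and 1.68) and -0.23 for all genes, and 134 members lay above 0. For 64 of the higher members the whole interval lay above 2-fold, and for 8 of the lower ones it lay below. Summed, the members' share of counts was 0.294% with LINC00472 (exact Clopper-Pearson 95% interval 0.292 to 0.297) and 0.136% in the control (0.135 to 0.136). Without LINC00472 itself these shares were 0.268% and 0.131%, and the median over the other 166 members was 1.08. The shift was thus present without LINC00472.

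**Figure D1:**
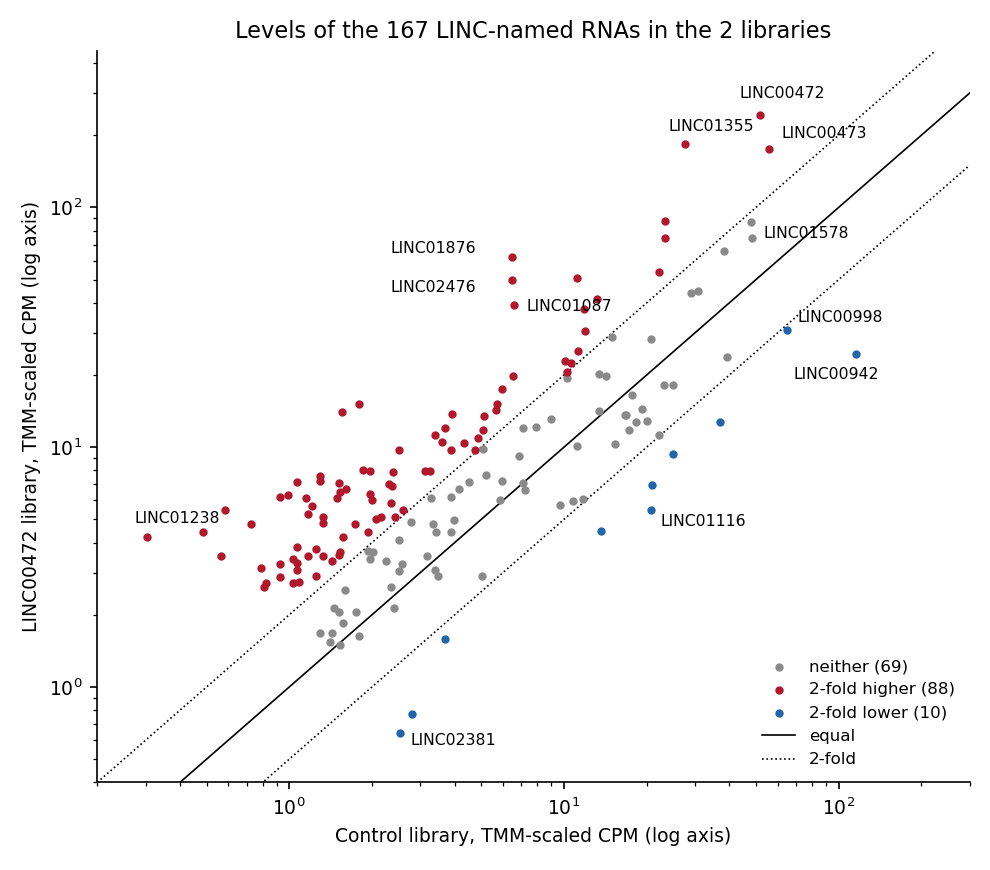
TMM-scaled CPM of each of the 167 LINC-named RNAs in the control library (x axis, log scale) and the LINC00472 library (y axis, log scale), with lines at equality and at 2-fold. Red points (88) are at least 2-fold higher, blue points (10) at least 2-fold lower and grey points (69) neither, and LINC00472 is the highest point.

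Other noncoding classes lay on the same side, and protein-coding genes did not. Of 268 antisense RNAs, 41.4% were higher and 6.34% lower (median 0.74). Among 275 noncoding RNAs with LOC names, 48.4% were higher and 5.82% lower (median 0.91). The remaining 655 noncoding genes, with none of these names, had 55.0% higher, 7.48% lower and a median of 1.12. The shift was thus not particular to LINC-named RNAs. Protein-coding genes numbered 12117, with 10.4% on the higher side, 26.7% on the lower side and a median of -0.34. With 1 library per group, no test of these differences between classes was possible. The contrast with protein-coding genes was present at each level of expression. Members under 5 CPM had a median of 1.31, those at 5 to 20 CPM 0.67 and those at 20 CPM or more 1.11. For protein-coding genes the same levels gave 0.13, -0.29 and -0.41.

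**Figure D2:**
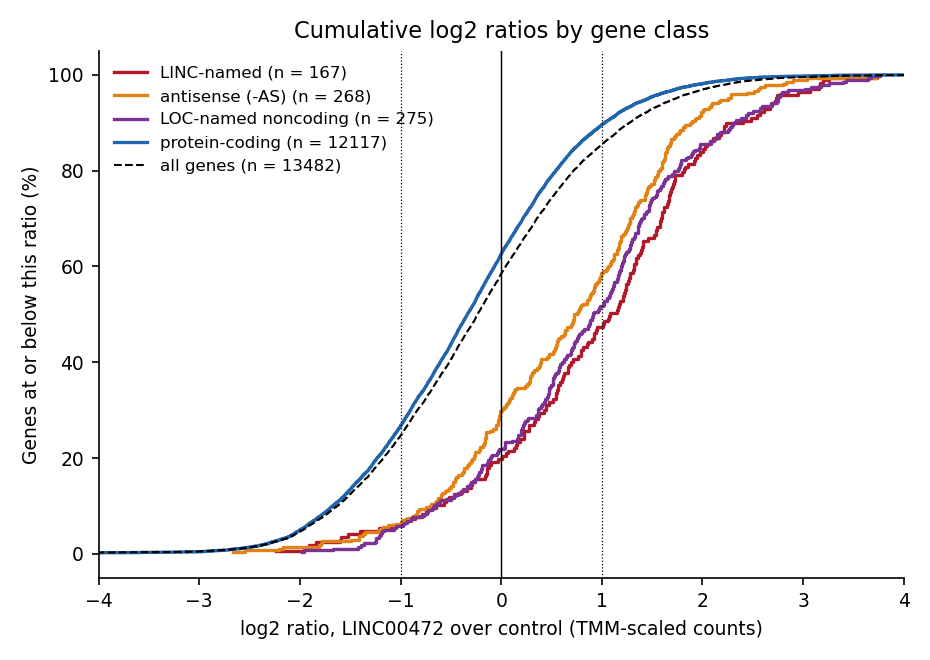
Share of genes in percent (y axis) at or below each log2 ratio of LINC00472 over control (x axis), for LINC-named, antisense, LOC-named noncoding and protein-coding genes and for all genes with a summed count of at least 100. The curves of the 3 noncoding classes drawn lie to the right of the protein-coding curve, with medians of 1.08, 0.74, 0.91 and -0.34 in that order. The remaining noncoding genes have no curve of their own.

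More LINC-named rows had a count in the LINC00472 library than in the deeper control. Of the 1567 LINC-named rows, 1017 had 0 counts in both libraries and 383 had summed counts of 1 to 99. A count was present for 474 rows in the LINC00472 library and for 447 in the deeper control. Over all genes the deeper control had more, with 18910 genes against 18238 in the LINC00472 library. When the control was thinned at random to the total of the LINC00472 library, 422 rows kept a count, fewer than the 447 at full depth. A count appeared in the LINC00472 library alone for 103 rows and in the control alone for 76. The matching shares of all genes are not given here, so these counts are a description only.

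The 12 members highest by interval bound ranged from rare to abundant in the control. LINC01876, an RNA studied in the developing human brain, had 1441 counts in the LINC00472 library against 320 in the control. In deposited FPKM this was 34.5 against 3.19, a 9.56-fold ratio of scaled counts (log2 3.26, interval 3.08 to 3.44). LINC02476 went from 4.85 FPKM in the control to 50.3 in the LINC00472 library, a 7.73-fold ratio. Both ranked among the 12 members with the highest mean FPKM. LINC00173, an RNA studied in small cell lung cancer, had 352 against 89 counts (8.36-fold) and LINC00597 327 against 77 (8.97-fold). LINC01238 had the highest ratio of all members, 13.3-fold, but from 98 against 15 counts, and its interval was wide (log2 3.01 to 4.69). LINC00887 (128 against 29 counts, 9.20-fold) and LINC01460 (103 against 24, 8.91-fold) had similarly few counts. The remaining 5 of the 12 highest were LINC01355, LINC01087, LINC01411, LINC00506 and LINC00310, with ratios of 5.92-fold to 6.67-fold.

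**Figure D3:**
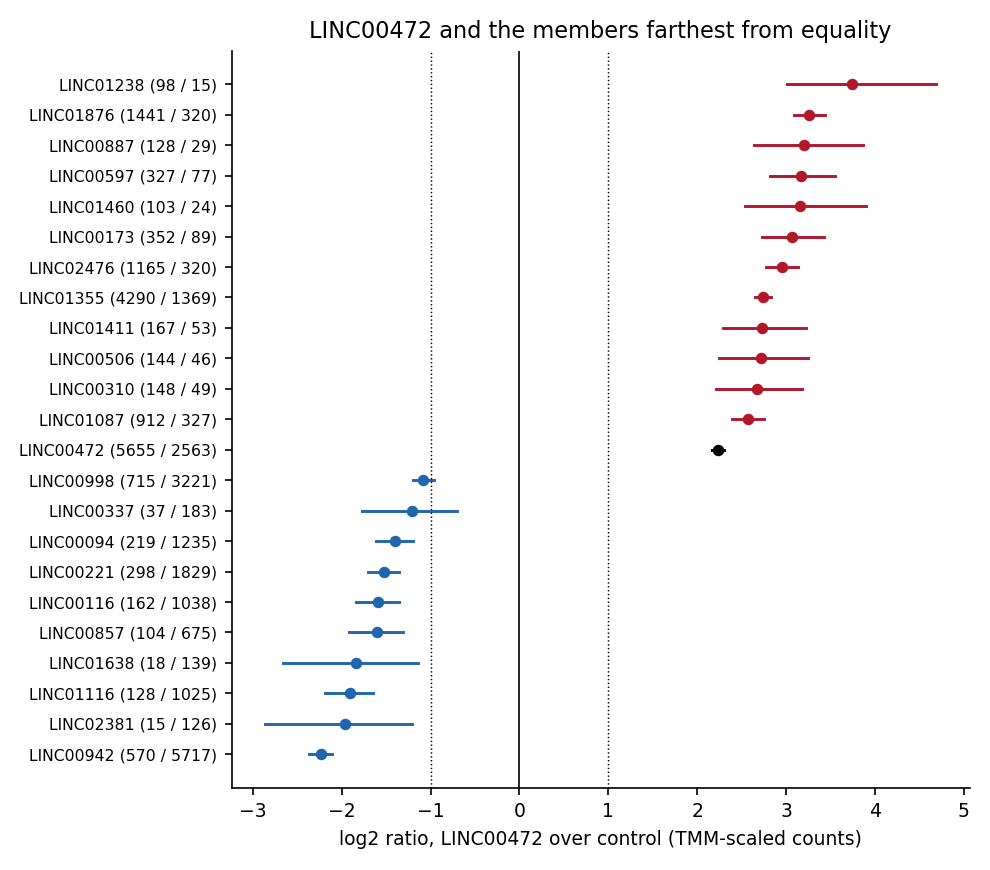
Log2 ratio of LINC00472 over control (x axis) with its 95% counting interval for LINC00472 (black), the 12 highest (red) and the 10 lower members (blue). Counts in the LINC00472 and control libraries follow each name, and dotted lines mark 2-fold. The interval of LINC00472 (2.16 to 2.30) lies to the left of the point of each of the 12 highest members.

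The ranking of abundant members changed between the libraries. LINC00473 had 4101 against 2773 counts, and its FPKM of 116.7 against 30.9 made it the member with the highest mean FPKM. Its ratio was 3.15-fold (log2 1.65, interval 1.58 to 1.72). LINC01355, a single-exon RNA, had 4290 against 1369 counts, or 52.0 against 6.85 FPKM. Its ratio was 6.67-fold (log2 2.74, interval 2.65 to 2.83), the narrowest interval among the 12 highest. In the control the 5 most counted members were LINC00942, LINC00998, LINC00473, LINC00472 and LINC00674, with 22.5% of the members' counts. In the LINC00472 library they were LINC00472, LINC01355, LINC00473, LINC01004 and LINC01578, with 29.2%. LINC01004 (2048 against 1158 counts, 3.76-fold), LINC00641 (1730 against 1158, 3.18-fold), LINC00342 (1255 against 1099, 2.43-fold) and LINC00923 (966 against 654, 3.14-fold) were higher too. LINC01608, the remaining higher member among the 12 by FPKM, had 24.5 against 8.45 FPKM (2.53-fold).

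Several abundant members did not reach 2-fold with TMM scaling. LINC01578, now named CHASERR, keeps the level of the chromatin remodeller CHD2 low in cis. It had 51.2 against 25.2 FPKM and a log2 ratio of 0.87 (interval 0.78 to 0.95). Its ratio passed 2-fold with total counts (log2 1.16), upper quartile factors (1.25), totals without the 100 most abundant genes (1.21) and FPKM (1.01). LINC01000 (log2 0.79), LINC00674 (0.62), LINC01806 (0.54) and LINC01715 (0.44) also lay between equality and 2-fold. LINC01000 passed 2-fold with the first 3 of those alternatives (1.08, 1.18 and 1.13), and LINC00674 with upper quartile factors (1.01). LINC02001, now the small nucleolar RNA host SNHG30, was near equality with 17.0 against 14.2 FPKM (log2 0.07, interval -0.13 to 0.26). LINC01287 had 424 against 1145 counts (log2 -0.34).

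**Figure D4:**
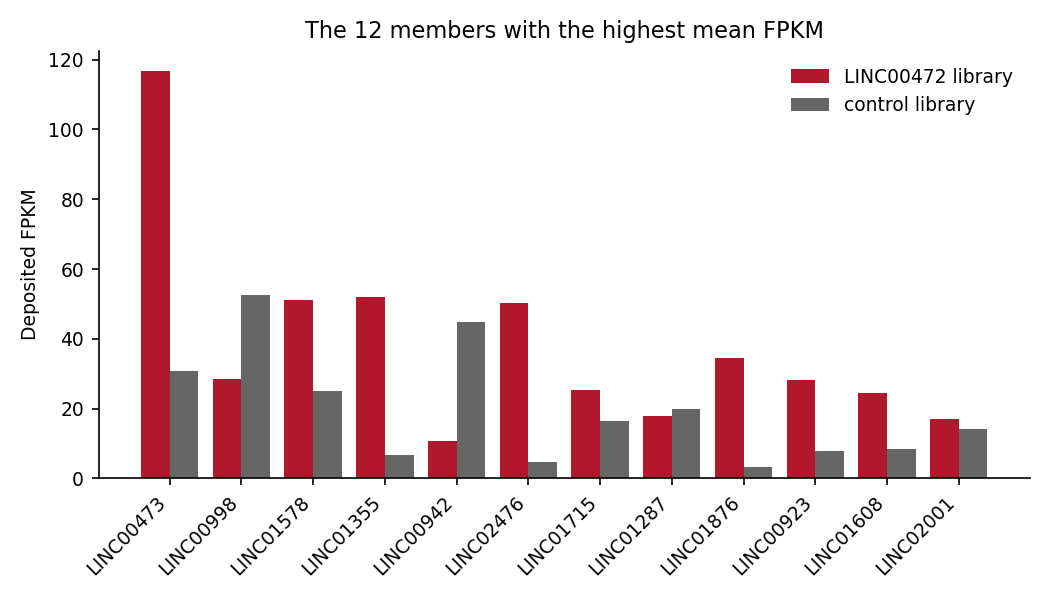
Deposited FPKM (y axis) of the 12 members with the highest mean FPKM, in the LINC00472 library (red bars) and the control library (grey bars), ordered by the mean. LINC00473 reaches 116.7 in the LINC00472 library, and LINC00998, LINC00942 and LINC01287 are the members with the taller control bar.

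Of the members known to encode a small protein, some were lower and others were not. Of 9 LINC symbols listed as such, 4 were members, and 3 of these were at least 2-fold lower while 0 were higher, beside 24.7% and 14.5% of all genes. Of protein-coding genes 26.7% were lower. LINC00998, now SMIM30, encodes a small membrane protein and was the second most counted member of the control. It had 28.4 FPKM in the LINC00472 library against 52.7 in the control, a 2.12-fold lower ratio (log2 -1.08, interval -1.20 to -0.96). It did not reach 2-fold under total counts (-0.79), upper quartile factors (-0.69), totals without the 100 most abundant genes (-0.74) and FPKM (-0.88). LINC00116 encodes mitoregulin, a microprotein of the inner mitochondrial membrane, and had 162 against 1038 counts (3.01-fold lower, log2 -1.59). LINC00094, now BRD3OS, had 219 against 1235 counts (2.65-fold lower, log2 -1.40). LINC00467, reported to encode a partner of ATP synthase, had 59 against 79 counts and a log2 ratio of 0.66 (interval 0.16 to 1.17), which was 1.05 with upper quartile factors and 1.01 without the 100 most abundant genes. The median of these 4 was -1.24, beside 1.08 for all members and -0.34 for protein-coding genes.

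RefSeq now types 4 members as protein-coding, namely LINC00116, LINC00094, LINC00998 and LINC00672, and 161 as long noncoding, while 2 had no entry. Of the first 4, 3 were lower and 1 higher. Of the 161, 86 were higher and 7 lower (median 1.15). The exception was LINC00672, now LASP1NB, with 226 against 124 counts (3.86-fold higher, log2 1.95, interval 1.63 to 2.28). The annotated reading frames of LINC00998 and LINC00672 are shown because these members differ in direction, with start and stop codons in capitals. They come from GENCODE 29 (GRCh38) and each lies within 1 exon, at chr7:113117399-113117578 on the minus strand and chr17:38925694-38925771 on the plus strand.
LINC00998 (SMIM30) reading frame: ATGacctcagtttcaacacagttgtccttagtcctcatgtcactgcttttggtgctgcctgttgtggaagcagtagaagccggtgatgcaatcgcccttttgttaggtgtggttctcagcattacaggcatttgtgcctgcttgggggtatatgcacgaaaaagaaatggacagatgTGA
LINC00672 (LASP1NB) reading frame: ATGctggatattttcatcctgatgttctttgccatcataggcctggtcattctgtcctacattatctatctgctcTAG
The LINC00998 frame has 59 codons before the stop in a transcript of 1070 nt, and the LINC00672 frame 25 codons in one of 3692 nt.

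The other 7 lower members were typed as long noncoding. LINC00942 had the most control counts of any member, with 570 against 5717 (10.8 against 44.8 FPKM). It was 4.71-fold lower (log2 -2.24, interval -2.36 to -2.11). LINC01116 had 128 against 1025 counts (3.76-fold lower), LINC00221 298 against 1829 (2.88-fold) and LINC00857 104 against 675 (3.04-fold). LINC02381 (15 against 126 counts) and LINC01638 (18 against 139) were 3.89-fold and 3.58-fold lower from few counts, and LINC00337 (37 against 183) was 2.31-fold lower. LINC00337 did not reach 2-fold under total counts (log2 -0.92), upper quartile factors (-0.82), totals without the 100 most abundant genes (-0.87) and FPKM (-0.76). With LINC00998 also short, 8 lower members were left.

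LINC RNAs with published work in tumour cells were mixed. Of 29 listed, 10 were members, of which 3 were higher, 2 lower and 5 neither (median 0.43), beside 14.5% higher and 24.7% lower of all genes. The higher ones were LINC00473, LINC00707 (586 against 560 counts, log2 1.15), a partner of the RNA-binding protein HuR, and LINC00312 (72 against 53 counts, log2 1.52). With FPKM, LINC00312 had a log2 ratio of 0.92. The lower ones were LINC01116 and LINC00857. LINC00662 (log2 0.77, and 1.06 with total counts, 1.16 with upper quartile factors and 1.11 without the 100 most abundant genes), LINC00941 (0.59), LINC00673 (0.27), LINC00963 (-0.40) and LINC01234 (-0.55) did not reach 2-fold. The interval of LINC00673, which acts on the phosphatase PTPN11 in pancreatic cancer, included equality (-0.01 to 0.55).

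Members and their neighbours on the genome often differed. On GENCODE 29, 161 members could be placed, and 76 of them overlapped or lay within 10 kb of another gene with a summed count of at least 100. For 54 the nearest such gene was protein-coding. Of these 54 members 21 were higher and 6 lower (median 0.75), whereas of their 54 neighbours 8 were higher and 12 lower (median -0.12), or 14.8% and 22.2%, close to the shares of all genes. The member had the higher ratio in 34 pairs. Beside the 21 higher members, 4 neighbours were higher, 6 lower and 11 neither. Of all protein-coding genes 10.4% were higher and 26.7% lower, so lower neighbours are not read as a trait of these loci. The 85 members with no such gene within 10 kb had a median of 1.31, and 52 were higher and 4 lower. Across all 76 pairs Spearman's correlation of the ratios was 0.14, as a description of pairs that share both libraries and in some cases reads.

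In 6 pairs the member was higher and the coding gene lower, beside 26.7% lower among all protein-coding genes. LINC00672 was higher while LASP1, an actin-binding adaptor, had 2133 against 14999 counts (log2 -1.72). LINC00641 (log2 1.67) lies downstream of HNRNPC, an RNA-binding protein, which had 7464 against 33249 counts (log2 -1.07). LINC01089 (log2 1.41) overlaps RHOF, a small GTPase gene with 192 against 1265 counts (log2 -1.63), on the same strand. Of the transcript of LINC01089, 53.3% of 50-base words also occur in transcripts of another gene. LINC01311 (log2 1.34) lies tail to tail with the citrate carrier gene SLC25A1 (653 against 3627 counts, log2 -1.38). LINC00969 (103 against 96 counts, log2 1.19) lies tail to tail with the mucin gene MUC4, which had 0 against 2125 counts. The sixth such pair was LINC00894 (log2 1.82) and CXorf40B (log2 -1.15), which overlap on opposite strands.

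Other pairs had the same direction. LINC00857 and ANXA11, a calcium-binding annexin, lie head to head and were both lower (log2 -1.61 and -1.27). LINC00337 overlaps ICMT, a methyltransferase of prenylated proteins, on the other strand, and both were lower (log2 -1.21 and -2.27). LINC02486 and FBXW7, a ubiquitin ligase subunit, lie head to head and were both higher (log2 1.01 and 1.68), as were LINC01424 and UBE2G2 (1.46 and 2.05). LINC01578 lies upstream of CHD2, which was higher (15248 against 13185 counts), beside a log2 ratio of 0.87 for the RNA. LINC00706 and LINC00707 lie head to head, and both were higher (log2 1.93 and 1.15). By contrast, the member with the lowest ratio, LINC00942, follows ERC1, a scaffold gene near equality (log2 0.12). Whether the library marked strand is not given in the sources used here, so reads of overlapping pairs cannot be separated.

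**Figure D5:**
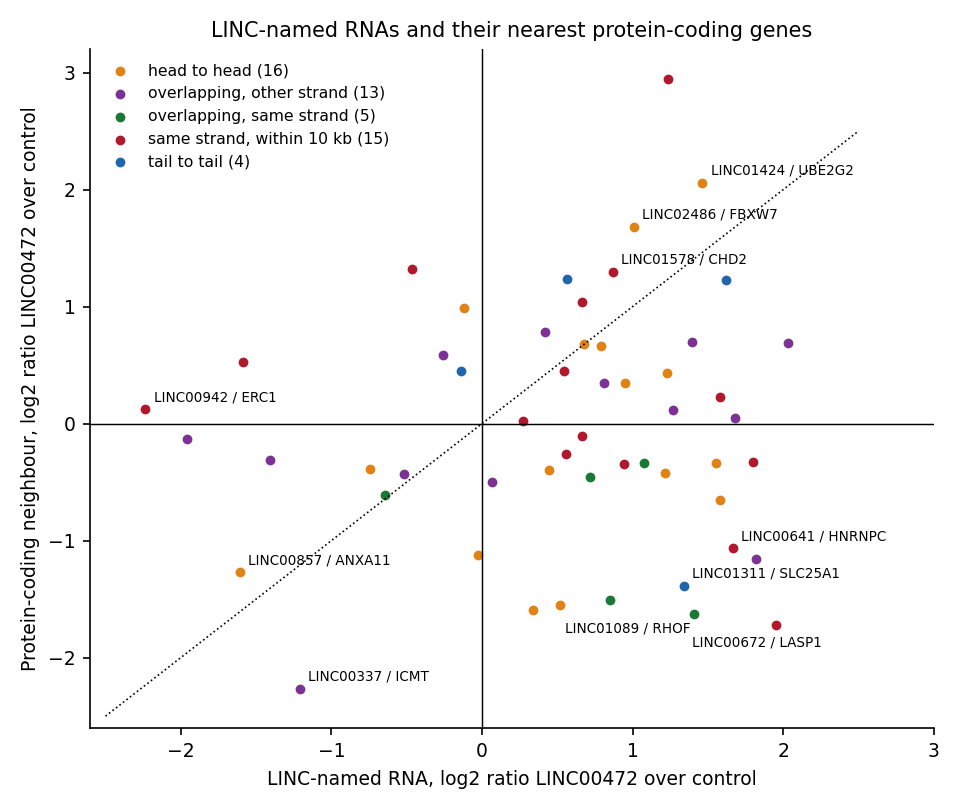
Log2 ratio of LINC00472 over control for each LINC-named RNA (x axis) and its nearest protein-coding gene (y axis), coloured by their relation, with the diagonal dotted. MUC4, with 0 counts in the LINC00472 library, is not drawn, and 53 pairs are shown. Pairs such as LINC00641 with HNRNPC and LINC00672 with LASP1 lie at the lower right, where the RNA was higher and the coding gene lower.

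Transcript length separated the members from messenger RNAs. Deposited accessions matched a GENCODE 29 transcript for 139 members. The longest match gave the length, which can differ from the length behind the deposited FPKM. Across members, Spearman's correlation of this length with control count per FPKM was 0.79. Members under 1000 nt (n = 24) had a median log2 ratio of 1.33, with 17 higher and 0 lower. Protein-coding transcripts under 1000 nt (n = 513) had a median of -1.68, with 24 higher and 383 lower. From 3000 nt upward the medians were 1.01 for 27 members and -0.06 for 6645 protein-coding genes. Spearman's correlation of the ratio with length was 0.01 across members and 0.40 across protein-coding genes, as descriptions over genes that share both libraries. The part of this length dependence in the contrast between the classes was not tested. The number of exons made little difference among members. The 18 with 1 exon had a median of 0.98, the 61 with 2 or 3 had 0.90 and the 60 with 4 or more had 1.16. With GC content under 42% the median was 1.36 (n = 29), and at 50% or more it was 0.58 (n = 52), where 6 of the 9 lower members with a transcript lay.

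Most members with a matched transcript shared little sequence with other genes. Members with under 10% of their 50-base words in other genes' transcripts (n = 103) had 53 higher and 6 lower (median 1.02). At 10 to 50% (n = 26), 12 were higher and 3 lower (median 0.87). Members with 50% or more (n = 10) had 7 higher (70.0%, beside 51.5% of the least shared) and 0 lower, and counts of these are uncertain. They include LINC01260, LINC01296 and LINC00339.

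Members that host small RNAs on the same strand were few. All 4 with a microRNA inside were higher, namely LINC00472 itself, LINC00969, LINC01138 and LINC02486, beside 52.7% of members and 14.5% of all genes. The hairpin rows of the last 3 had few counts, with 29 against 49 for MIR570, 28 against 81 for MIR5087 and 1 against 1 for MIR4453. These counts are not scaled to the deeper control, and after scaling MIR5087 had a log2 ratio of -0.44, unlike its host. The 2 with small nucleolar RNAs inside were neither higher nor lower by the rule. These were LINC02001 and LINC00888, now SNHG33, which had 139 against 535 counts (log2 -0.85). The small nucleolar RNA rows had few counts too, with 17 against 14 for SNORD7 in LINC02001 and 24 against 5 for SNORA63D in LINC00888. Even unscaled, both rows had more counts in the LINC00472 library, whereas both hosts had more in the control (329 against 667 for LINC02001).

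Promoter sequences were at hand for 119 members. Their windows had a median GC content of 61.0% and 19 CpG sites, beside 58.3% and 14 in all 27305 windows of the table. Members' windows covered 56 of the 88 higher members, 53 of the 69 that were neither and all 10 lower ones. Higher members, the least covered, had 57.3% and 10.5 sites, those that were neither 63.0% and 22 sites, and lower ones 63.0% and 23.5 sites. The GC box occurred in 35.7% of higher, 60.4% of neither and 70.0% of lower members' windows, beside 44.6% of all windows. The CCAAT box was found in 41.2% of members' windows against 35.7% of all windows. The cyclic AMP response element was found in 5 members, or 4.20% against 3.63% of all. These were LINC00473, LINC00706, LINC00265, LINC00630 and LINC01719, and they were picked out after their values were seen. All 5 were higher, beside 56 of the 119 members with a window and 14.5% of all genes. A link between the element and the ratios was not tested.

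Near the count minimum the values were of the same kind. Just inside it were LINC01232 (61 against 40 counts, log2 1.68), LINC01686 (39 against 64, log2 0.37) and LINC01106 (63 against 41, log2 1.69). Just outside were LINC02065 (34 against 65, log2 0.15), LINC01617 (33 against 63, log2 0.16) and LINC00858 (62 against 31, log2 2.07). Because the control holds more counts, a sum of raw counts admits control-high RNAs at a lower scaled level than RNAs high in the LINC00472 library. With a mean of at least 1 CPM in place of the sum, 110 of 201 were higher and 10 lower, beside 16.3% and 23.8% of 14012 genes (40.2% either way).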

How the data were processed

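RNA of 2 NCI-H838 cultures, 1 per group by sample title, was compared. Deposited values were raw read counts (whole numbers, 1 per gene) and FPKM computed by the authors. HISAT2 2.1.0, StringTie 1.3.4b, Trimmomatic, bcl2fastq 2.20.0 and the build hg19 are listed in the submitters' processing notes, without roles. How reads were counted, and with which strand setting, is not given there. Counts were scaled with TMM factors over all 27685 genes in edgeR 4.0.16 (R 4.3.3), with factors of 1.11 (LINC00472) and 0.905 (control). Log2 ratios used a prior count of 0.5, and intervals were exact conditional (Clopper-Pearson) 95% intervals of 2 counts. Reads are not independent molecules, so intervals cover counting error only. A gene was called higher or lower at 2-fold with an interval excluding equality. Alternatives were total-count, upper quartile and DESeq2 1.42.0 scaling, other minimums, a prior of 5, FPKM with 0.5 added and a thinned control. Names, transcripts and neighbours came from GENCODE 29 and RefSeq (GRCh38), so no hg19 position is printed. Named members were LINC00472, the 12 highest and all lower ones by interval bound, the 12 highest by mean FPKM and by mean CPM, listed members and 3 on each side of the minimum. Other members and neighbours were named after their values were seen. Members and lists were chosen with earlier results of these data known. The procedure was tested on simulated counts with counting error alone and few changed genes, equally many in each direction. Changes as broad and uneven as those in these libraries were not simulated, so the test does not cover them. Python 3.11.15 with scipy 1.17.1 was used.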

Additional observations from a re-analysis of the deposited data

How the results depend on the processing

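Under the scalings tried, the size of the shift changed and its side did not. The members' median log2 ratio of 1.08 became 1.37 with total counts, 1.47 with upper quartile factors, 1.42 with totals lacking the 100 most abundant genes and 0.92 with FPKM. The median of all genes moved from -0.23 to 0.05, 0.15, 0.11 and -0.05. Under these 4 settings 100, 106, 104 and 77 members were higher and 8 were lower in each. The first 3 raise every member's count ratio by nearly the same amount, so all 88 higher members had to stay so. With FPKM, 75 of them did. Over all genes upper quartile factors gave 22.7% higher and 14.8% lower. A prior count of 5 left 88 higher and 10 lower, and the thinned control gave 90 and 10. DESeq2 size factors and the single-library tables gave 88 and 10 as well, but could hardly differ. The former had the same rounded factors as TMM (1.11 and 0.905), and the latter held identical counts for all 27685 genes. Other minimums changed the number of RNAs described. With any count there were 243 higher and 18 lower of 550 (median 1.28; all genes 18.4% and 19.3%). At 200 counts there were 56 and 8 of 116 (0.93; 12.4% and 25.6%), at 1 CPM the median was 1.21, and at 5 CPM there were 37 and 7 of 84 (0.78; 11.6% and 26.2%). LINC01287 changed sign, to 0.0444 with upper quartile factors and 0.00 (0.0002) without the 100 most abundant genes. The cause of these changes was not tested. No paired analysis was possible because each group held 1 library. RNAs of few counts, such as LINC02381, have wide intervals.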

Other observations

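The deposited FPKM and counts gave different pictures for 4 members, which were picked out after their values were seen. FPKM per count, centred on the median gene, differed by over 0.5 on the log2 scale between the libraries for LINC00869 (-1.11), LINC00476 (0.68), LINC02081 (-0.59) and LINC01605 (-0.50), and by at most 0.1 for 152 of 167 members. LINC00869 had more scaled counts in the LINC00472 library (log2 0.56, 179 against 258 counts) but less FPKM (2.13 against 2.74). LINC00476, now ERCC6L2-AS1, had 82 against 66 counts (log2 1.39) and 1.49 against 0.308 FPKM. For LINC00869, 60.7% of 50-base words also occur in transcripts of other genes. Whether the libraries held different isoforms of these RNAs was not tested.

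Of the 24 members that RefSeq now lists under another symbol, some have a reported function. LINC01481, now PRANCR, an RNA of epidermal progenitor growth, was 4.08-fold higher (143 against 74 counts). LINC01137, now LITATS1, which restrains TGF-beta signalling, had a log2 ratio of -0.12 (interval -0.40 to 0.15). LINC01024, now MALINC1, a mitosis-associated RNA, had -0.26 (interval -0.68 to 0.16). LINC00346, now PRECSIT, which is linked to p53 and STAT3, had -0.47 (422 against 1242 counts).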
